A study of Mus musculus with 20 samples.

Results

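Immune checkpoint receptors and receptors of the SLAM family were examined in amyloid-bearing mouse cortex by bulk RNA-seq. The members were 9 genes taken by symbol from a table of 43346 annotated genes: Pdcd1 (PD-1), Lag3 (LAG-3), Havcr2 (TIM-3), Lilrb4, Gp49a, Ly9, Cd84, Cd48 and Cd244. They were chosen by receptor family with the measured difference between ages in these same libraries known, so their change with age is described here and not tested. All 20 libraries came from 5xFAD mice, hemizygous for amyloid-producing human transgenes that carry mutations of inherited Alzheimer's disease and are driven by the neuronal Thy1 promoter. Every group therefore carried these transgenes, and no mouse without them was compared.

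The 4 groups held 5 libraries each. Control mice were 5xFAD+/- with wild-type Abca7 (Abca7WT/WT), sampled at 3 and at 10 months of age. KI mice were 5xFAD+/- with a knocked-in Abca7 substitution, written p.A693S in the protocol and p.A696S in the series title, sampled at the same ages. The protocol names male littermates and both heterozygous and homozygous knockins, and the KI label of a library does not say which it was. No label says outright that the libraries of a group came from different animals, and p-values here measure the scatter among libraries, which may be partly technical. The question put was whether the Abca7 allele alters amyloid and immune responses in this model.

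Checkpoint receptors are membrane proteins best known from T cells, where PD-1, LAG-3 and TIM-3 restrain activation after binding ligands such as PD-L1, MHC class II and galectin-9. Many inhibitory receptors carry tyrosine motifs (ITIMs) that recruit phosphatases including SHP-1. SLAM receptors sit on most blood-derived cells, bind each other across cell contacts, and signal through small adaptors of the SAP family. Microglia, the resident macrophages of the brain, also express several of these receptors. In bulk tissue, fewer cells of a type and less RNA per cell cannot be told apart.

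Library totals ran from 42896149 to 57447015 counts, and 19623 genes had enough counts to be tested. Summed markers of cortical neurons lay between 4635 and 5173 CPM (counts scaled to a common library total with TMM factors) in every library. Of these 8 markers, 1 had an age difference above 0 in control and 3 in KI. In control 0 of 8 were called with age, and in KI 1 was, Gad1, lower by -0.23 ± 0.06 log2 units (edgeR adjusted p = 0.018). Thalamus markers summed to 144 ± 40.0 CPM (SD, n = 5) in control and 189 ± 46.2 in KI at 3 months and to 111 ± 13.1 and 110 ± 8.48 at 10 months, and 1 of 6 was called lower with age in control and 5 of 6 in KI. Counts of Ttr, a choroid plexus gene, ran from 761 to 101020. Markers of neighbouring tissue thus differed among libraries and moved with age, and their part in the receptors' values was not tested. The library KI 10 months replicate 5 went against the protocol's males: it held 54206 counts of Xist and 1 of Ddx3y, against at most 218 and at least 2382 in the other 19. That library also had the highest summed homeostatic microglial markers (1061 CPM) and disease-associated microglial markers (1839 CPM) of its group. Age and genotype differences of the receptors that rest on it are given with and without it.

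All 9 receptors were present in the tested set, at low levels. Of the 9, 4 (Lag3, Havcr2, Cd84 and Cd48) had at least 10 counts in all 3-month libraries, while Lilrb4 reached this in 9 of the 10, Ly9 in 7, Cd244 in 4, and Pdcd1 and Gp49a in 1. Pdcd1, Gp49a and Cd244 passed the low-count filter through the 10-month libraries, where every receptor had at least 10 counts in all 10, and the other 6 also passed it on the 3-month libraries alone. Per kilobase of the length the table gives (RPKM), the order in control cortex at 10 months was Lag3 (6.01 ± 1.93, SD, n = 5), Lilrb4 (4.45 ± 1.32), Havcr2 (4.01 ± 0.710), Cd48 (2.71 ± 0.444), Cd84 (1.80 ± 0.194), Ly9 (0.993 ± 0.0946), Pdcd1 (0.862 ± 0.384), Gp49a (0.364 ± 0.118) and Cd244 (0.115 ± 0.0197). The libraries of Lag3, Lilrb4 and Havcr2 overlapped, as did those of Ly9 and Pdcd1 and those of Pdcd1 and Gp49a. The other neighbours in that order did not overlap. In KI cortex at 10 months Lilrb4 stood first with 6.15 ± 2.02 RPKM, followed by Havcr2 with 5.12 ± 0.172 and Lag3 with 5.07 ± 0.688, and these 3 again overlapped. The place of Lilrb4 rests on the table's length of 1491 bases, whereas its exons cover 5227 bases in the GENCODE M21 annotation of the same build. With that length it was at 1.27 ± 0.377 RPKM in control and 1.75 ± 0.576 in KI at 10 months, below Lag3, Havcr2, Cd48 and Cd84 in both. Gp49a, with 2107 bases in the table and 5439 in GENCODE, was then at 0.141 ± 0.0457 and 0.156 ± 0.0719, and the other 7 lengths were the same in both. At 3 months Lag3 and Havcr2 led in both genotypes, with 1.93 ± 0.409 and 1.45 ± 0.206 RPKM in control, and Lilrb4, with 0.360 ± 0.213, stood behind Cd48 and Cd84.

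**Figure D1:**
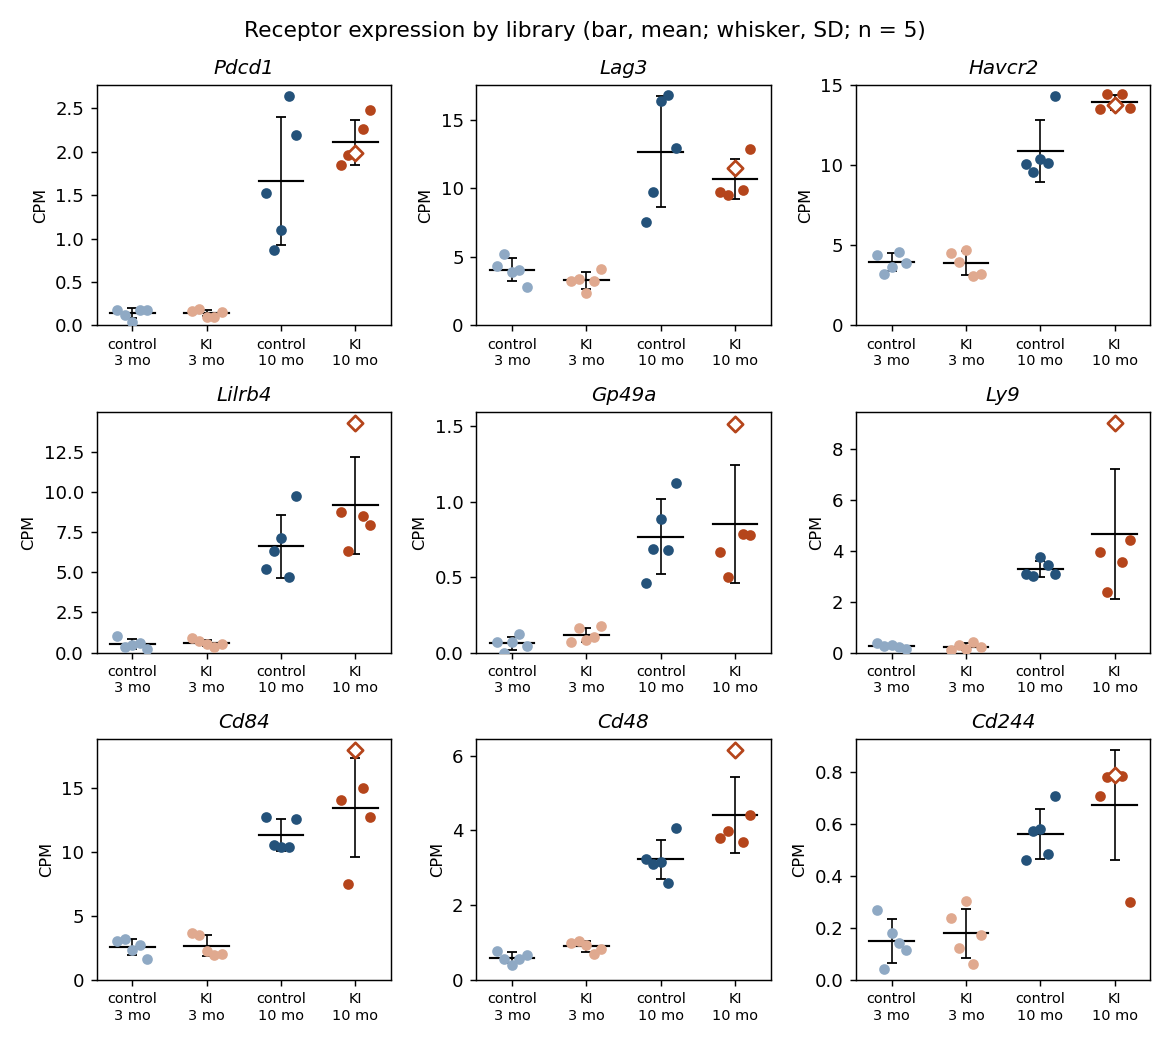
Level of each receptor in all 20 libraries, as CPM on a linear axis that starts at 0, with points for libraries, horizontal bars for the mean of 5, whiskers for the SD, and an open diamond for KI replicate 5 at 10 months. All 10-month control libraries lie above all 3-month control libraries for all 9 receptors.

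The first set holds the checkpoint receptors of T cells. Pdcd1 (chromosome 1, 94038305 to 94052553, mm10, identifier ENSMUSG00000026285) encodes PD-1, which binds PD-L1 and PD-L2. In control libraries at 3 months, in order of replicate number, Pdcd1 measured 0.180, 0.126, 0.0449, 0.181 and 0.183 CPM, and at 10 months 1.52, 0.870, 1.09, 2.64 and 2.19 CPM. In KI libraries it measured 0.165, 0.185, 0.101, 0.102 and 0.157 CPM at 3 months and 1.84, 1.97, 1.99, 2.26 and 2.48 CPM at 10 months. The lowest 10-month library was above the highest 3-month library in both genotypes, although the 3-month values rest on 2 to 10 counts each. The difference, 10 against 3 months, was 3.51 ± 0.32 (SE) log2 units in control and 3.87 ± 0.32 in KI. Control libraries spread more at 10 months (1.66 ± 0.741 CPM, SD) than KI libraries (2.11 ± 0.256), with control replicates 7 and 8 lowest and replicate 9 highest.

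Lag3 (chromosome 6, 124904361 to 124911705, ENSMUSG00000030124) encodes LAG-3, a CD4-like receptor that binds MHC class II. It measured 4.37, 5.20, 3.93, 4.04 and 2.81 CPM in control and 3.22, 3.37, 2.40, 3.27 and 4.14 CPM in KI at 3 months. In older cortex the values were 7.54, 9.70, 16.4, 16.8 and 12.9 CPM in control and 9.71, 9.50, 11.5, 9.88 and 12.9 CPM in KI. Lag3 had the highest mean per length in young cortex, though its libraries overlapped those of Havcr2 there in both genotypes. For Lag3 the ages did not overlap in either genotype. Its age difference was 1.64 ± 0.20 log2 units in control and 1.70 ± 0.20 in KI. Control replicates 8, 9 and 10 at 10 months stood above every KI library, replicate 10 by a small margin.

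Havcr2 (chromosome 11, 46454935 to 46481255, ENSMUSG00000020399) encodes TIM-3, which binds galectin-9 and phosphatidylserine. It measured 4.39, 3.19, 3.66, 4.58 and 3.89 CPM in control and 4.54, 3.94, 4.74, 3.07 and 3.20 CPM in KI at 3 months. At 10 months it measured 10.1, 9.59, 10.4, 10.2 and 14.3 CPM in control and 13.5, 14.4, 13.7, 14.4 and 13.5 CPM in KI. The KI libraries lay within a narrow band at 10 months, and control replicate 10 was the one control library inside it. The age difference was 1.47 ± 0.13 log2 units in control, the smallest of the 9 receptors there, and 1.84 ± 0.13 in KI.

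Lilrb4 (chromosome 10, 51480640 to 51496613, ENSMUSG00000062593) encodes an inhibitory receptor with ITIMs, also called gp49B, and Gp49a (51480632 to 51486316, ENSMUSG00000089672) encodes a close relative that lacks those motifs. In the deposited coordinates 5677 of the 5685 bases of the Gp49a span lay inside the Lilrb4 span, and the pair sits 28.5 Mb from Abca7 on the same chromosome. In the GENCODE M21 annotation of the same build, where the genes are named Lilrb4a and Lilr4b, the gene model Gm49339 shared 1846 exon bases with Lilrb4a and 122 with Lilr4b, and the antisense gene Gm40645 shared 131 with Lilrb4a. The first 150 coding bases of each are printed to show how alike the pair is, 5′ to 3′ from the start codon, with the 5 positions that differ in capitals.
Lilrb4: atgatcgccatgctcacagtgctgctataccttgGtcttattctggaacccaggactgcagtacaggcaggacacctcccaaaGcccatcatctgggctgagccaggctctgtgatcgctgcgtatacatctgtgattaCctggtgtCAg
Gp49a: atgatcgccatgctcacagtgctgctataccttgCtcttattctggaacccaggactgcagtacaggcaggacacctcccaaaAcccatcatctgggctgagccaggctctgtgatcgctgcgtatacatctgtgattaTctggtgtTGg
Across 907 aligned coding bases the pair was 96.0% identical. Of all 50-base windows of the Gp49a coding sequence, 19.8% occurred unchanged in a Lilrb4 transcript, and 20.9% of Lilrb4 windows occurred in Gp49a. Reads from such stretches fit either gene, the authors' handling of them is not given in the sources used here, and the counts of the pair are uncertain for this reason.

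Lilrb4 measured 1.04, 0.357, 0.494, 0.583 and 0.206 CPM in control and 0.898, 0.698, 0.544, 0.325 and 0.539 CPM in KI at 3 months. In 10-month cortex it reached 5.24, 6.36, 7.12, 4.70 and 9.73 CPM in control and 8.75, 6.34, 14.3, 8.51 and 7.95 CPM in KI, the highest value being replicate 5. The ages did not overlap in either genotype, and the age difference was 3.59 ± 0.33 log2 units in control and 3.94 ± 0.33 in KI (3.72 ± 0.31 without KI replicate 5). Gp49a had 0 to 6 counts per control library and 3 to 10 per KI library at 3 months, or 0.0611 ± 0.0438 and 0.118 ± 0.0478 CPM (SD). By 10 months it was at 0.462, 0.687, 0.887, 0.682 and 1.12 CPM in control and 0.667, 0.501, 1.52, 0.784 and 0.782 CPM in KI, again with replicate 5 highest. The age difference of Gp49a was 3.58 ± 0.44 log2 units in control and 2.80 ± 0.39 in KI (2.48 ± 0.37 without KI replicate 5).

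The SLAM receptors Cd244, Ly9, Cd48 and Cd84 lie in 1 cluster on chromosome 1. Cd244 spans 171559193 to 171609746 (ENSMUSG00000004709) and Ly9, on the other strand, spans 171588624 to 171607410 (ENSMUSG00000004707) wholly inside it, although no exon bases of the 2 genes overlap in GENCODE M21. Cd48 spans 171682009 to 171705258 (ENSMUSG00000015355) and Cd84 spans 171839697 to 171890718 (ENSMUSG00000038147). Reads from introns could be assigned to either gene of the nested pair, since the strand setting of the counting is not given in the sources used here.

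Ly9 encodes CD229, a SLAM receptor that binds itself on neighbouring cells. It measured 0.378, 0.273, 0.292, 0.221 and 0.137 CPM in control and 0.118, 0.287, 0.141, 0.427 and 0.226 CPM in KI at 3 months. At 10 months it measured 3.11, 3.00, 3.76, 3.45 and 3.11 CPM in control and 3.94, 2.39, 9.02, 3.55 and 4.43 CPM in KI. Replicate 5 stood far above the other KI libraries, which ran from below to above the control range. Ly9 had the largest age difference of the 9 receptors in both genotypes, 3.63 ± 0.34 log2 units in control and 4.26 ± 0.35 in KI. Without KI replicate 5 the KI value was 3.87 ± 0.27, below that of Pdcd1 (3.89 ± 0.33).

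Cd84 encodes another self-binding SLAM receptor. It measured 3.02, 3.17, 2.34, 2.69 and 1.65 CPM in control and 3.64, 3.53, 2.24, 1.91 and 2.04 CPM in KI at 3 months. Older libraries held 12.7, 10.5, 10.4, 10.3 and 12.5 CPM in control and 14.0, 7.46, 18.0, 15.0 and 12.7 CPM in KI. Control libraries were close together in older cortex, whereas KI libraries ran from below to above all of them. The age difference was 2.13 ± 0.22 log2 units in control and 2.33 ± 0.22 in KI (2.21 ± 0.22 without KI replicate 5).

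Cd48 encodes a lipid-anchored SLAM protein that is the ligand of CD244. It measured 0.773, 0.567, 0.404, 0.563 and 0.663 CPM in control and 0.993, 1.05, 0.927, 0.691 and 0.817 CPM in KI at 3 months. In the 10-month libraries it was at 3.23, 3.09, 3.16, 2.58 and 4.05 CPM in control and 3.79, 3.97, 6.15, 3.70 and 4.41 CPM in KI. At both ages most KI libraries stood above most control libraries, with 1 or more libraries of each genotype in the range of the other. The age difference was 2.43 ± 0.18 log2 units in control and 2.30 ± 0.18 in KI (2.15 ± 0.16 without KI replicate 5).

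Cd244 encodes 2B4, the receptor for CD48, known from natural killer cells. It was the lowest of the 9 per length at 10 months. It measured 0.270, 0.0420, 0.180, 0.141 and 0.114 CPM in control and 0.236, 0.123, 0.302, 0.0610 and 0.174 CPM in KI at 3 months, from 2 to 15 counts per library. At 10 months it measured 0.462, 0.572, 0.578, 0.485 and 0.705 CPM in control and 0.706, 0.779, 0.787, 0.784 and 0.298 CPM in KI. The ages did not overlap in control, but KI replicate 7 at 10 months, with 16 counts, fell just under the highest KI library at 3 months. The age difference was 1.87 ± 0.38 log2 units in control and 1.90 ± 0.36 in KI (1.83 ± 0.38 without KI replicate 5).

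Age was the contrast that the choice of receptors used, and nothing is read from the counts that follow. By edgeR's quasi-likelihood test at an adjusted p of 0.05, all 9 were called higher at 10 months in control, where 3.72% of all genes tested were called higher, and all 9 in KI, where 5.66% were. The ages did not overlap for 9 of 9 in control, against 4.56% of all genes, and for 8 of 9 in KI, against 5.34%. The median age difference was 2.43 log2 units in control and 2.33 in KI, beside -0.0034 and -0.0031 over all genes tested. In ratios of mean CPM, Ly9, Gp49a, Lilrb4 and Pdcd1 formed the upper end in control at 12.6-fold, 12.6-fold, 12.4-fold and 11.6-fold. Cd48 was 5.42-fold higher, Cd84 4.39-fold, Cd244 3.75-fold, Lag3 3.11-fold and Havcr2 2.77-fold.

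**Figure D2:**
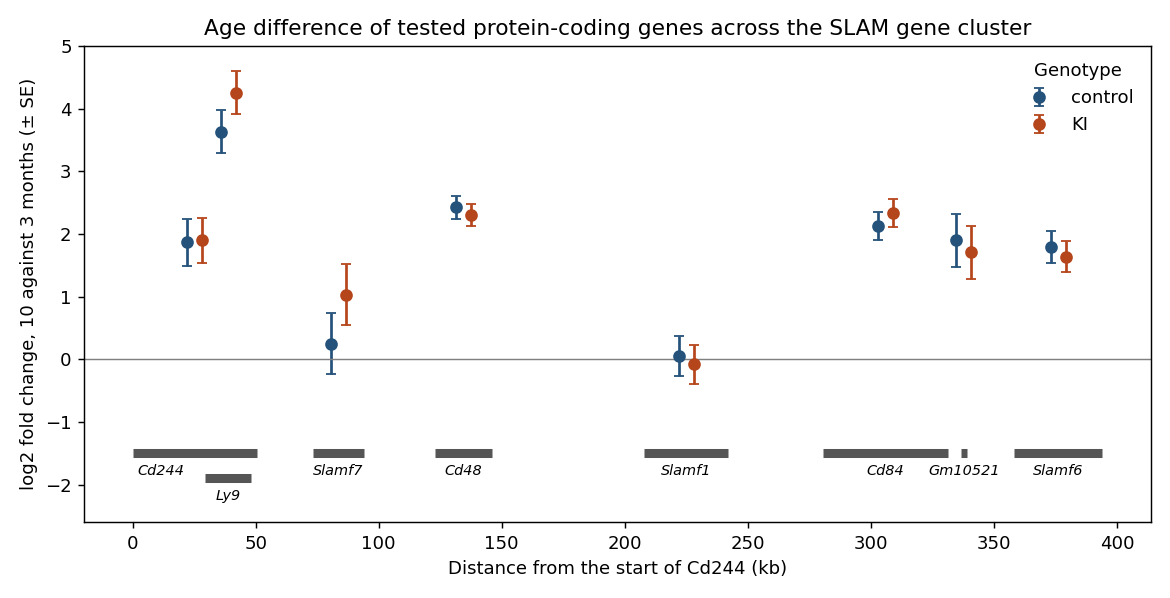
Genes of the SLAM cluster by distance from the start of Cd244 in kilobases, with the log2 difference of 10 against 3 months and its SE in control and in KI. Cd244, Ly9, Cd48, Cd84, Slamf6 and Gm10521 lie above 0 in both genotypes, Slamf7 lies at 0.25 in control and 1.03 in KI, and Slamf1 at 0.05 and -0.08. Grey bars mark the extent of each gene.

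SLAM genes outside the 9 did not all follow them. Of 5 other SLAM receptors, all tested, 3 rose with age in both genotypes by edgeR's quasi-likelihood test. Of all genes tested, 3.72% were called higher in control and 5.66% in KI, beside this count and the list counts below. The lists were drawn up with earlier results of these data known, so their age calls and p-values are given as description. Slamf9 rose by 2.23 ± 0.16 log2 units in control (adjusted p = 1.2e-08) and 2.05 ± 0.16 in KI (adjusted p = 1.4e-08). Slamf6 rose by 1.80 ± 0.26 and 1.64 ± 0.25 (edgeR adjusted p = 7.6e-05 and 0.00013), and Slamf8 by 1.42 ± 0.34 and 1.56 ± 0.32 (adjusted p = 0.014 and 0.0034). Slamf1, which lies between Cd48 and Cd84, had values of 0.05 ± 0.32 and -0.08 ± 0.31, and Slamf7, between Ly9 and Cd48, 0.25 ± 0.49 and 1.03 ± 0.49, and none of these passed the test. The adaptors Sh2d1a (SAP), Sh2d1b1 and Sh2d1b2 (EAT-2 and its relative) had at most 6, 20 and 3 counts in any library, and 0 of 3 could be tested.

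Ligands and signalling partners moved in part. Of 12 listed ligands, 10 were tested, and 4 rose with age in control and 3 in KI, with 0 lower. Cd274 (PD-L1) rose by 1.38 ± 0.16 log2 units in control and 1.10 ± 0.16 in KI (edgeR adjusted p = 6.1e-06 and 7.2e-05). Lgals9 (galectin-9, a TIM-3 ligand) rose by 0.94 ± 0.10 and 0.76 ± 0.10 (edgeR adjusted p = 1.7e-06 and 2.1e-05). Pdcd1lg2 (PD-L2) had 1 to 15 counts per library and was not tested. Hmgb1 had values of 0.05 ± 0.06 and 0.08 ± 0.06, and Apoe, an LILRB4 ligand, 0.51 ± 0.17 and 0.49 ± 0.17, which did not pass the test. Of the 3 MHC class II chains in the list, which form a LAG-3 ligand, 1 passed in control and 0 in KI. H2-Ab1 rose by 1.69 ± 0.41 in control (edgeR adjusted p = 0.016) and had a value of 0.92 ± 0.40 in KI. The more abundant H2-Aa had values of 1.46 ± 0.42 and 0.40 ± 0.41, and H2-Eb1 1.26 ± 0.42 and 0.17 ± 0.41. Lgals3 (galectin-3), also in the ligand list, rose by 1.63 ± 0.38 in control and 1.28 ± 0.36 in KI (edgeR adjusted p = 0.012 and 0.032).

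Of 9 phosphatases and adaptors that work behind ITIMs and their activating counterparts, 6 rose with age in control and 7 in KI. Tyrobp (DAP12) rose by 2.23 ± 0.14 and 2.68 ± 0.14 log2 units (edgeR adjusted p = 2.5e-09 and 2.0e-10), and Inpp5d (SHIP1) by 0.68 ± 0.10 and 0.99 ± 0.10 (adjusted p = 0.00018 and 1.1e-06). Ptpn6 (SHP-1) rose by 1.52 ± 0.13 and 1.59 ± 0.13 (edgeR adjusted p = 1.5e-07 and 4.9e-08). Ptpn11 (SHP-2) had values of -0.06 ± 0.05 and 0.01 ± 0.05, and the kinase Fyn -0.06 ± 0.06 in each genotype, and neither passed. Of 23 other inhibitory and costimulatory molecules, 17 were tested, and 4 rose in control and 3 in KI. Vsir, listed under its older name 4632428N05Rik and encoding VISTA, rose by 0.87 ± 0.11 and 1.16 ± 0.11 (edgeR adjusted p = 1.2e-05 and 1.9e-07). The abundant pair Sirpa and Cd47 had values of 0.04 ± 0.06 and 0.10 ± 0.06, and of 0.07 ± 0.18 and -0.05 ± 0.18, with Cd200 at -0.15 ± 0.08 and -0.18 ± 0.08. Of 8 listed Lilr and Pir receptors, 4 were in the table and 2 were tested, and Lilra5 rose in KI (1.52 ± 0.44, edgeR adjusted p = 0.037) with 0.79 ± 0.47 in control. Pirb, the ITIM receptor nearest in kind to Lilrb4, had values of 0.43 ± 0.35 and 0.87 ± 0.36 that did not pass.

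Markers of microglia and astrocytes moved with the receptors. The 12 homeostatic microglial markers, among them Csf1r and Cx3cr1, summed to 357 to 455 CPM in control and 404 to 453 CPM in KI at 3 months. At 10 months they summed to 694 to 839 CPM and 800 to 1061 CPM, and 8 of 12 rose in control and 10 of 12 in KI. The 8 general myeloid markers, led by Laptm5, C1qb and C1qa, summed to 113 to 149 and 114 to 160 CPM at 3 months and to 260 to 418 and 338 to 401 CPM at 10 months, and 8 of 8 rose in both. The 12 disease-associated microglial markers, led by Ctsd, Axl and Cd9, summed to 460 to 557 and 507 to 609 CPM at 3 months and to 1090 to 1420 and 1314 to 1839 CPM at 10 months, with 11 and 12 of 12 called higher. Ctsd alone was at 361 and 911 CPM in control. Single genes in control and KI ran from 0.44 ± 0.07 and 0.58 ± 0.07 log2 units (Axl) to 5.12 ± 0.32 and 5.86 ± 0.32 (Cst7). Itgax (4.65 ± 0.31 and 5.16 ± 0.32) and Clec7a (4.18 ± 0.50 and 4.48 ± 0.49) also differed more than any of the 9 receptors. The 5 astrocyte markers also summed higher at 10 months, from 1180 ± 46.5 to 1820 ± 132 CPM (SD) in control and from 1183 ± 78.5 to 2021 ± 241 in KI. Of them 1 was called in each genotype, Gfap, a filament gene of reactive astrocytes, which rose by 2.16 ± 0.14 and 2.46 ± 0.14 log2 units (edgeR adjusted p = 2.5e-09 and 2.0e-10). The part of these markers in the receptors' change was not tested. Each receptor was therefore also set against the marker sums of its own library.

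Per homeostatic marker sum, the means of all 9 receptors remained higher at 10 months. The ratios ran from 1.49-fold for Havcr2 to 7.00-fold for Ly9 in control and from 1.64-fold for Lag3 to 9.28-fold for Ly9 in KI. Per homeostatic sum the ages overlapped for Lag3 in control and for Cd244 in KI. Cd244 in control was barely apart, with at most 0.0592% at 3 months and at least 0.0594% at 10 months. Per general myeloid marker sum, the mean ratios of Ly9 (5.03-fold and 7.07-fold), Lilrb4 (4.85-fold and 5.35-fold) and Pdcd1 (4.28-fold and 5.40-fold) stayed furthest above 1. Gp49a was 4.56-fold and 2.65-fold higher on that scale. Cd48 was 2.11-fold and 1.76-fold higher, Cd84 1.76-fold and 1.77-fold, and Cd244 1.45-fold and 1.32-fold. Lag3 (1.18-fold and 1.2-fold) and Havcr2 (1.06-fold and 1.28-fold) were nearest to the change of the myeloid markers themselves, which summed to 2.62-fold and 2.73-fold more at 10 months. Per myeloid sum the ages overlapped in both genotypes for Lag3, Havcr2 and Cd244, and in KI for Cd84. Havcr2 in control was at 3.02 ± 0.641% (SD) of that sum at 3 months and 3.18 ± 0.533% at 10 months. Without KI replicate 5 the ratios of Ly9 in KI were 7.82-fold per homeostatic and 5.62-fold per myeloid markers, those of Lilrb4 6.95-fold and 4.74-fold, and those of Gp49a 3.08-fold and 2.20-fold.

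**Figure D3:**
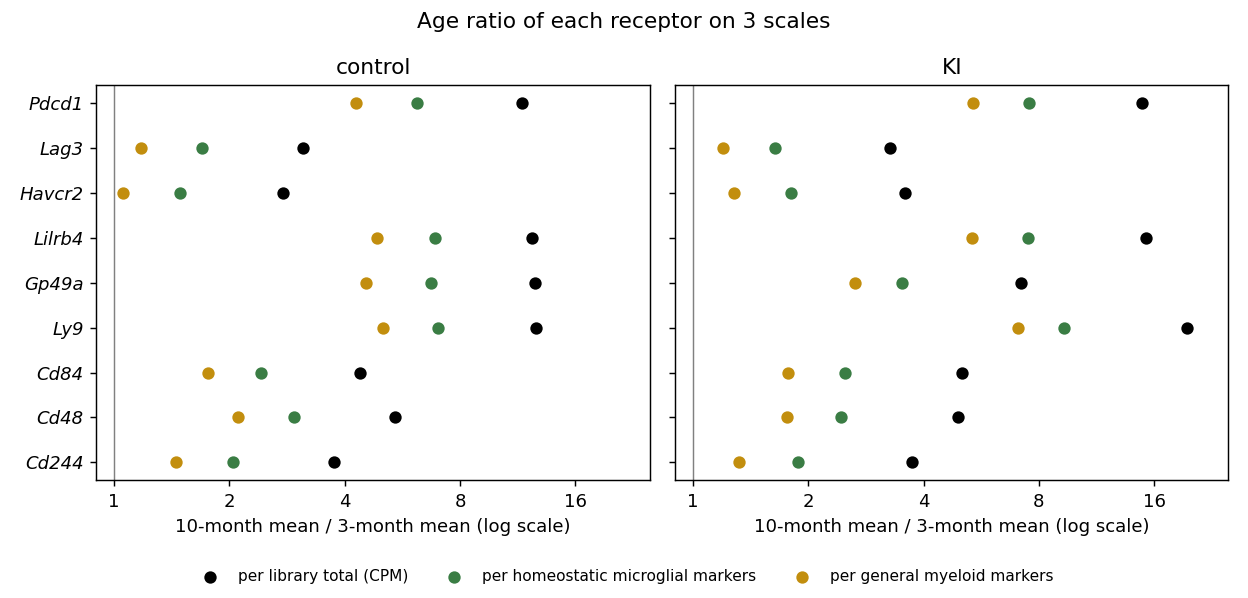
Ratio of the 10-month mean to the 3-month mean of each receptor on a log axis, per library total, per summed homeostatic microglial markers and per summed general myeloid markers. Ly9, Lilrb4 and Pdcd1 keep ratios above 4 on all 3 scales in both genotypes, and Havcr2 and Lag3 lie between 1.06 and 1.28 per myeloid markers.

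Markers of lymphocytes and other immune cells were compared in the same way, and their part in the receptors' change was not tested. The 16 T cell markers, led by Trbc2, Cd6 and Cd4, summed to 11.9 to 17.9 CPM in control and 14.3 to 18.5 in KI at 3 months, and to 13.1 to 17.6 and 14.8 to 19.5 at 10 months. Of them 8 were tested and 1 rose, Cd5, by 1.28 ± 0.34 log2 units in control and 1.54 ± 0.34 in KI (edgeR adjusted p = 0.034 and 0.0059). The defining chains Cd3d, Cd3e and Cd3g had at most 7, 10 and 14 counts in any library and were at 0 in 3, 2 and 4 of the 20 libraries. In control their means were 0.021, 0.021 and 0.029 CPM at 3 months and 0.071, 0.070 and 0.058 at 10 months. In KI the means were 0.036, 0.051 and 0.029 CPM and then 0.038, 0.113 and 0.142. On so few counts these chains were not tested, and the T cell sum says little about them. Cd8a and Cd8b1, with at most 12 and 7 counts, were not tested either. Mean Cd8a went from 0.028 to 0.108 CPM with age in control and from 0.026 to 0.145 in KI. Mean Cd8b1 went from 0.026 to 0.016 CPM in control and from 0.023 to 0.048 in KI. The 9 natural killer cell markers, led by Eomes, Klrb1c and Klrd1, summed to between 0.343 and 1.44 CPM in all libraries. Klrb1c rose in KI (2.02 ± 0.57 log2 units, edgeR adjusted p = 0.032) and had a value of 2.37 ± 0.72 in control that did not pass, on at most 18 counts a library. Ncr1, Prf1 and Nkg7 had at most 3 counts, 1 count and 8 counts, and were not tested. Mean Nkg7 went from 0.021 to 0.129 CPM with age in control and from 0.024 to 0.078 in KI. Mean Ncr1 went from 0.025 to 0.0081 CPM in control and from 0.023 to 0.015 in KI, and Prf1 from 0.013 and 0.0076 to 0. The 8 border macrophage markers, led by Stab1, Mrc1 and F13a1, summed to 26.7 ± 7.73 CPM (SD) and 31.3 ± 2.47 at 3 months and 24 ± 7.00 and 26.7 ± 1.77 at 10 months, with 0 of 8 called. The mast cell markers Cpa3, Mcpt4, Tpsb2, Ms4a2 and Cma1 had at most 6 counts in any library, and Hdc, the sixth of that list, lay at 1.64 CPM over all libraries. The B cell and plasma cell markers, led by Ighm, Cd79a and Igkc, summed to 21.4 to 40.8 CPM in control and 23.6 to 31.0 in KI at 3 months and to 36.7 to 53.4 and 38.8 to 63.1 at 10 months. Of 4 tested 1 was called, and this was Ighm, at 38.5 CPM over all libraries, which rose by 0.63 ± 0.16 and 0.98 ± 0.16 log2 units (edgeR adjusted p = 0.023 and 0.00031). Of the neutrophil and monocyte markers, led by Ly6c2, Ccr2 and S100a9, Ccr2 fell in KI by 0.98 ± 0.29 (edgeR adjusted p = 0.039) and 0 of 5 tested rose. The dendritic cell list, led by Zbtb46, Flt3 and Cd209a, had 0 of 3 tested genes called, and Xcr1 had at most 2 counts.

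The genotype of Abca7 was the comparison that the choice of receptors did not use. A substitution does not itself show in gene counts, and the genotype labels were not checked here through other genes. At 3 months, 0 of 9 receptors were called by edgeR's quasi-likelihood test, against 0.0255% of all genes, and 1 of 9 had an unadjusted p under 0.05, against 3.80% of all genes. The count was also 0 with DESeq2 and with limma-voom. Of the 9, 5 had a difference above 0, as had 52.4% of all genes, and the median was 0.04 log2 units beside 0.0054 over all genes. Cd48 was 0.895 ± 0.143 CPM (SD) in KI and 0.594 ± 0.137 in control at 3 months, a difference of 0.58 ± 0.19 log2 units (edgeR adjusted p = 1.00). Gp49a differed by 0.93 ± 0.54 log2 units on at most 10 counts a library, and Lag3 by -0.31 ± 0.20. The remaining 6 lay between -0.12 and 0.23. All 9 receptors had overlapping genotypes at 3 months, where 0.306% of all genes lay wholly higher in KI and 0.352% wholly lower.

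At 10 months 0 of 9 receptors were called by edgeR's quasi-likelihood test, against 0.0612% of all genes, and again 0 with DESeq2 and limma-voom. An unadjusted p under 0.05 was found for 2 of 9 receptors and 7.86% of all genes. Differences were above 0 for 8 of 9 and for 50.04% of all genes, with a median of 0.33 log2 units beside 0.00018 over all genes. Havcr2 was 13.9 ± 0.468 CPM (SD) in KI and 10.9 ± 1.93 in control, a difference of 0.35 ± 0.13 log2 units (edgeR adjusted p = 0.467). Cd48 was 4.40 ± 1.01 CPM in KI and 3.22 ± 0.528 in control, a difference of 0.45 ± 0.16 (edgeR adjusted p = 0.461). Ly9 differed by 0.51 ± 0.27 log2 units, Lilrb4 by 0.47 ± 0.27, Pdcd1 by 0.33 ± 0.24, Cd244 by 0.26 ± 0.32, Cd84 by 0.25 ± 0.21, Gp49a by 0.14 ± 0.32 and Lag3 by -0.25 ± 0.19. For all 9 receptors the genotypes overlapped at this age too, where 0.907% of all genes lay wholly higher in KI and 0.586% wholly lower.

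The 10-month differences rested in part on KI replicate 5, which was the highest KI library for Lilrb4, Gp49a, Ly9, Cd84, Cd48 and Cd244. Without it 7 of 9 differences were above 0, with a median of 0.19 log2 units, and 1 had an unadjusted p under 0.05. Ly9 then differed by 0.12 ± 0.22 log2 units, Lilrb4 by 0.25 ± 0.27, Cd84 by 0.12 ± 0.21, Cd48 by 0.30 ± 0.15, Cd244 by 0.19 ± 0.34 and Gp49a by -0.17 ± 0.30. Havcr2, for which replicate 5 was in the middle of its group, differed by 0.36 ± 0.14 without it. In that group the homeostatic marker sum was 863 ± 112 CPM (SD) against 758 ± 65.7 in control, and the disease-associated sum was 1608 ± 196 against 1276 ± 128; their part in the receptors' differences was not tested.

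**Figure D4:**
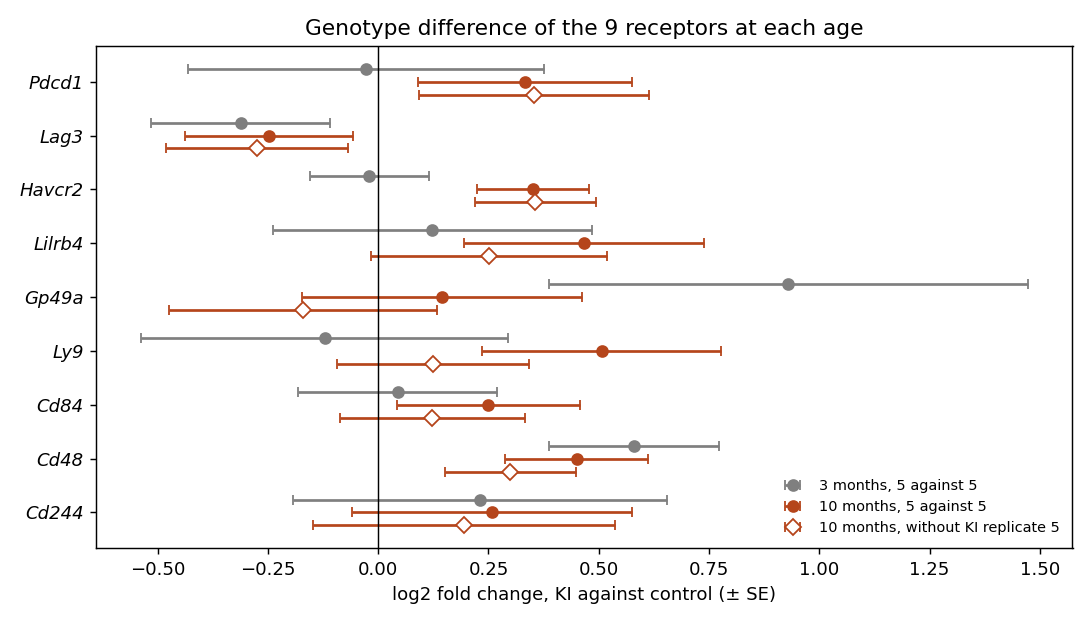
Difference of KI against control for each receptor in log2 units with its SE, at 3 months, at 10 months and at 10 months without KI replicate 5. At 10 months 8 of 9 points lie above 0, and Ly9 moves from 0.51 to 0.12 when that library is left out.

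Averaged over both ages, 0 of 9 receptors were called by edgeR's quasi-likelihood test, against 0.0764% of all genes, with 1 of 9 at an unadjusted p under 0.05, against 6.52% of all genes. That receptor was Cd48, whose difference was 0.51 ± 0.13 log2 units (edgeR adjusted p = 0.235), or 0.44 without KI replicate 5. Over the alternatives tried its adjusted p ran from 0.0617 with DESeq2 to 0.747 with a block for the replicate number. Lag3 had the one negative average, -0.28 ± 0.14 log2 units (edgeR adjusted p = 0.774). The genotype by age interaction called 0 of 9 receptors by edgeR, against 0% of all genes, and 0 of 9 had an unadjusted p under 0.05, against 883 of 19623 genes. Havcr2 came nearest with 0.37 ± 0.19 log2 units (edgeR adjusted p = 1.00). None of the genes in the other SLAM, ligand, adaptor, costimulatory and Lilr lists was called in any of the 4 genotype contrasts.

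Since Lilrb4 and Gp49a may share reads, their counts were also summed. The sum was 0.598 ± 0.338 CPM (SD, n = 5) in control and 0.719 ± 0.211 in KI at 3 months (2-sided exact permutation p = 0.508). It was 7.40 ± 2.20 CPM in control and 10.0 ± 3.39 in KI at 10 months (2-sided exact permutation p = 0.190, 0.328 after adjustment over 4 tests). That difference of 2.62 CPM was 1.18 CPM without KI replicate 5, where the KI mean was 8.57 ± 1.19 CPM (SD, n = 4). The log2 ratio of Lilrb4 to Gp49a counts, each plus 1, was 3.09 ± 0.256 in control and 3.45 ± 0.194 in KI at 10 months (exact permutation p = 0.0476, adjusted 0.190). At 3 months that ratio was 2.82 ± 1.02 in control and 2.15 ± 0.746 in KI (exact permutation p = 0.246). The smallest p that 252 assignments of 5 against 5 libraries allow is 0.00794.

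Within groups the receptors did not vary as one. Control replicate 6 at 3 months was above its group mean for 9 of 9 receptors. KI replicate 4 at 3 months and control replicate 10 at 10 months were so for 8 of 9, and control replicate 9 at 3 months and KI replicate 5 at 10 months for 7 of 9. For the 7 receptors with a mean of at least 1 CPM, deviations from the group mean on the log2 scale were compared over the 20 libraries, which share depth and dissection between genes, and the correlations are given as description. Lilrb4 and Cd84 were most alike (Pearson r = 0.70, or 0.66 without KI replicate 5), followed by Lilrb4 and Cd48 (0.56, or 0.48 without it), Lilrb4 and Havcr2 (0.54, or 0.59) and Havcr2 and Cd48 (0.50, or 0.60). The order after the first pair thus rested on that library. Havcr2 and Ly9 were least alike (-0.38, or -0.45 without it).

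**Figure D5:**
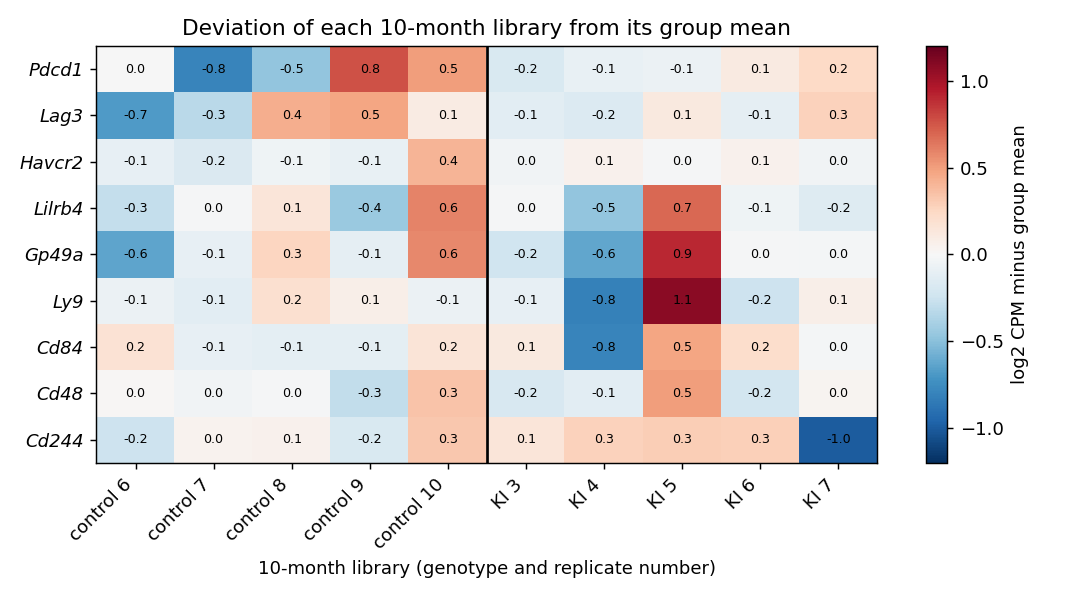
Deviation of each receptor from its group mean in log2 units, for the 10 libraries at 10 months, with libraries in columns by genotype and replicate number, red above the mean and blue below it. Control replicate 10 is above its group mean for 8 of 9 receptors and KI replicate 5 for 7 of 9.

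Among 15449 genes with a mean of at least 1 CPM, the gene whose deviations were most like those of Pdcd1 was Ccl6, a chemokine gene of the disease-associated microglial list (Pearson r = 0.88, Spearman rho = 0.84, 20 libraries), followed by Gm14291 and Adamts3. For Cd48 it was Lair1, an inhibitory collagen receptor (r = 0.86, rho = 0.83), followed by Epha7. For Lilrb4 it was the transcription factor gene Elf1 (r = 0.83, rho = 0.75), then Filip1l and Runx1 (r = 0.80). Ly9 was most like Fli1, a further transcription factor gene (r = 0.80, rho = 0.80), then Soga3 and D430019H16Rik. Havcr2 was most like Zfp418 (r = 0.88, rho = 0.83), Zfp184 and Gm20645, and Cd84 most like Farp2 (r = 0.88, rho = 0.82), Gm10179 and Katnal1. Without KI replicate 5, r for the first gene named was 0.89 for Pdcd1, 0.81 for Cd48, 0.82 for Lilrb4, 0.73 for Ly9, 0.88 for Havcr2 and 0.86 for Cd84. These genes were picked as the highest of 15449 correlations over 20 libraries, which by itself favours high values. No shared regulation was tested.

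Promoters were searched for 3 motifs. RefSeq start sites on GRCm38.p6 gave a promoter for 6 of 9: Pdcd1, Cd244, Cd48, Cd84, Gp49a (as Lilr4b) and Havcr2. In the 250 bases before the start, on both strands, the PU.1-type motif GAGGAAG occurred in 2 of 6 and in 10.6% of 32817 promoters of that length. The AP-1 motif TGANTCA occurred in 3 of 6 (Cd244, Cd84 and Havcr2) and in 6.75% of promoters, and GAAANNGAA, an IRF-type motif, in 1 of 6 (Cd84) and in 7.12%. No 2 matches overlapped in these promoters, and a match of letters is a description of the sequence only. The promoters of the T cell checkpoint genes with a PU.1-type match are printed, each 5′ to 3′ on the strand of the gene up to the base before its start, with matches in capitals: Pdcd1 at chr1:94052554-94052803 (minus strand, PU.1-type match 87 bases before the start) and Havcr2 at chr11:46454681-46454930 (plus strand, AP-1 match 200 bases and PU.1-type match 8 bases before the start).
Pdcd1: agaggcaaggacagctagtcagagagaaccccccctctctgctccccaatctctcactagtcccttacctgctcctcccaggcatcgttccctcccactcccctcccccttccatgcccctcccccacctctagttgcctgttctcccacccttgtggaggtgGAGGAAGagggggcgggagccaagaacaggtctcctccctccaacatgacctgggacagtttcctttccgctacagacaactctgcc
Havcr2: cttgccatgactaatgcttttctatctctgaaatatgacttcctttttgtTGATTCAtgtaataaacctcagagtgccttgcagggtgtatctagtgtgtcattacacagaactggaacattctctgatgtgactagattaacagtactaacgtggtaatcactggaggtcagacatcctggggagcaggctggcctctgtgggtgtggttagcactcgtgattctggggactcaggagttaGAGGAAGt
Age differences in control were 1.47 log2 units for Havcr2 and 2.13 for Cd84, each with 2 matches. Pdcd1 and Cd244, with 1 match each, had 3.51 and 1.87. Cd48 and Gp49a, with 0 matches, had 2.43 and 3.58. A relation between matches and age difference was not tested.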

How the data were processed

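RNA was isolated from cortex by TRIzol followed by DNase-treated columns and read on an Illumina HiSeq, per the labels' protocols. The authors deposited raw read counts per gene. The submitters' processing notes name build mm10, while aligner, counter, strandedness, annotation and the treatment of reads that fit several genes are not given in the sources used here. Members and gene lists were chosen with earlier results of these data known. Samples were grouped by the labels' genotype and age.

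Tests on these counts used edgeR 4.0.16 under R 4.3.3 (filterByExpr, TMM, robust quasi-likelihood F test, 4 group means over 20 libraries, Benjamini-Hochberg adjustment over 19623 genes, calls at 0.05). On simulated data the fit was checked beforehand for recovery of known changes. CPM use TMM-scaled totals, and RPKM divide these by the table's gene length. The genes named are all 9 receptors, up to 4 tested genes of highest mean CPM in each pathway list, up to 3 of highest mean in each marker list, and the 3 most like each receptor. A few genes that this rule would name are not reported here. Markers outside this rule, such as Cd5, Cst7, Itgax, Clec7a, Cd8a, Cd8b1, Nkg7 and the defining markers, were named after their values were seen. So were the list genes Pdcd1lg2, H2-Ab1, H2-Aa, H2-Eb1, Lgals3, Ptpn6, Slamf7 and the SLAM adaptors. Alternatives were RLE scaling, no filter, a mean of at least 1 CPM, DESeq2 1.42.0, limma-voom 3.58.1 with sample weights, a fit to the compared libraries alone, a replicate block, a threshold of 0.10, a pseudocount of 5 for the log2 ratio, and leaving out each library. RPKM with GENCODE M21 exon lengths was added after seeing the data.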

Additional observations from a re-analysis of the deposited data

Results flagged for a closer look

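Of 36 sets of 5 libraries (9 receptors in 4 groups), 3 held a library whose distance to its nearest neighbour was large for the range of the group. Chance alone gives about 1 in 20 such sets. Havcr2 in control replicate 10 at 10 months was 14.3 CPM, with the next library at 10.4 CPM. That library was also the highest control library for Lilrb4, Gp49a, Cd48 and Cd244. Gp49a in KI replicate 5 at 10 months was 1.52 CPM, with the next at 0.784 CPM, and this is the library whose Xist count goes against the protocol's males. Cd244 in KI replicate 7 at 10 months was low, at 0.298 CPM from 16 counts, with the next at 0.706 CPM.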

How the results depend on the processing

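In each of the 4 genotype contrasts, 0 of the receptors tested were called under every alternative run. In both age contrasts all of those tested were called. The receptors were chosen with that age difference known, so nothing is read from these age calls. All 9 were tested in each run but those at a mean of at least 1 CPM, with 7, and the fit to the 3-month libraries alone, with 6. Counts over all genes moved more. KI against control at 3 months called 5 genes, and 12 with DESeq2 and with limma-voom. At 10 months it called 12, but 58 with DESeq2, 75 with limma-voom, 7 with only the compared libraries, 4 with the replicate block and 7 to 14 with a library left out. The average called 15, against 49, 58 and 4 with DESeq2, limma-voom and the block and 31 at a threshold of 0.10, and the interaction 0 against 4 and 3. Age called 799 genes in control and 1582 in KI, against 1254 and 3027 with limma-voom and 958 for KI with only the compared libraries.

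Small genotype differences, none of them called, changed sign. With limma-voom, Lilrb4 was -0.027 and Cd84 -0.16 log2 units at 3 months, and Gp49a was -0.10 at 10 months. With the replicate block, Pdcd1 was 0.38, Lilrb4 -0.15, Cd84 -0.24 and Cd244 -0.10 at 3 months, and Lag3 was 0.035, Cd84 -0.062 and Cd244 -0.12 at 10 months. The cause was not tested. Of 18 same-numbered pairs of libraries, 3 correlated above 0.1 in their deviations from group means. Differently numbered pairs were not compared, so this does not settle whether replicate numbers pair the libraries. With a library left out, differences at 3 months ranged from -0.24 to 0.075 for Pdcd1, -0.098 to 0.054 for Havcr2, -0.072 to 0.53 for Lilrb4, -0.42 to 0.063 for Ly9, -0.087 to 0.14 for Cd84 and -0.038 to 0.58 for Cd244. Gp49a at 10 months ranged from -0.17 to 0.32. The 10-month difference in the log2 ratio of Lilrb4 to Gp49a, 0.36, ranged from 0.27 to 0.45, and its unadjusted exact permutation p, at 0.0476 with all libraries, was above 0.05 in 7 of 10 such runs.

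At 3 months Pdcd1, Gp49a, Ly9 and Cd244 had at most 21 counts a library, so differences there were not detectable at this depth unless large.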
